A study of Mus musculus with 10 samples.

Results

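Lysosomal gene expression was examined in mouse microglia through 31 genes: 22 for lysosomal enzymes, their activators and carriers of cholesterol, 8 for other proteins of the lysosomal membrane and 1 for the transcription factor Tfeb. The 31 genes were taken by symbol from the 37447 genes of the deposited expression table, with cathepsins left out. No measured value served as a filter, but the list was chosen with earlier results of these data known. All 31 were found and all 31 passed the filter on low values in each comparison. The gene Glb1 has 2 rows in the table, so 32 rows belong to the 31 genes; the longer of the Glb1 rows was used.

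RNA came from microglia, the resident macrophages of the brain, of the brainstem of mice aged 6 weeks. The laser-captured GFP group (4 libraries, 3 female and 1 male) holds GFP-expressing microglia cut from sections of briefly fixed and frozen tissue. The sorted GFP group (3 libraries, 2 female and 1 male) holds GFP-expressing microglia from dissociated tissue enriched on Percoll and flow sorted, and the sorted wild-type group (3 libraries, all male, strain C57BL/6) holds microglia without the reporter obtained in the same way. The labels name neither the gene locus that drives GFP nor the strain of the GFP mice, and RNA extraction differed between laser capture and sorting, so capture, fixation and extraction cannot be told apart. The labels call the libraries biological replicates without naming animals, so p-values measure the spread between these libraries. The unit is FPKM, fragments scaled to the length of the transcript and to the mapped fragments of the library, so levels can be compared between genes.

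The lysosome is the acidic compartment in which cells break down material taken up from outside or delivered by autophagy. Its soluble hydrolases each remove a particular group from lipids, glycosaminoglycans, glycoproteins or proteins, and loss of one of them typically causes a storage disease, often with damage to the brain. Microglia carry many lysosomes because they clear debris, and the transcription factor TFEB switches on many lysosomal genes by binding a short E-box-like element, CACGTG with favoured flanks, near their start sites.

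The element is shown first because it is a sequence feature that several of these genes share and that took no part in their choice. RefSeq promoter windows of GRCm38.p6, 300 bases long with 250 before and 50 after the start, were found for 29 of the 31 genes (34 windows); Asah1 and Npc1 were not matched. CACGTG, which reads the same on both strands, lay in the windows of 9 of the 29 genes (31.03%), beside 8.09% of 27025 genes in the whole promoter table. The longer palindrome TCACGTGA, every match of which contains a CACGTG, lay in 2 of the 29 (6.90%), Cln3 and Mcoln1, beside 1.12% of all genes. Neither is particular to the 31 genes. Among the lists described below, CACGTG lay in 28.57% of 14 V-ATPase genes, 18.75% of 16 other lysosomal membrane genes and 9.09% of 11 other hydrolases. TCACGTGA lay in 21.43%, 18.75% and 9.09% of these lists. For 18 microglial markers the shares were 11.11% and 5.56%. The 9 stretches below run 5′ to 3′ on the strand of the gene, end before the start site, and carry each CACGTG in capitals.
Lamp1, chr8:13159080-13159160, plus strand: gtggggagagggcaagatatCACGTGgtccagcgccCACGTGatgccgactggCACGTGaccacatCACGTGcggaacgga
Mcoln1, chr8:3500428-3500499, plus strand: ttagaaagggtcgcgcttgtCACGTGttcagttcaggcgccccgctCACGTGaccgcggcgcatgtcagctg
Cln3, chr7:126583332-126583405, minus strand: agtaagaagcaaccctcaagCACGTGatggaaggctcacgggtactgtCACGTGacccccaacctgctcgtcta
Naglu, chr11:101070001-101070046, plus strand: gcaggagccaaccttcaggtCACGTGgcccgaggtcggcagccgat
Glb1, chr9:114401010-114401055, plus strand: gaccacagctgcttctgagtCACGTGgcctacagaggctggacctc
Gaa, chr11:119267803-119267848, plus strand: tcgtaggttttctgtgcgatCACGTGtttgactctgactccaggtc
Sgsh, chr11:119355514-119355559, minus strand: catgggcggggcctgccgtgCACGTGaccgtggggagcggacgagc
Lgmn, chr12:102439116-102439161, minus strand: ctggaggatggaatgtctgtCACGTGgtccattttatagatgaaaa
Arsa, chr15:89477425-89477460, minus strand: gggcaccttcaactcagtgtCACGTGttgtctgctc
Lamp1 held 4 copies between bases -61 and -15 from its start, Mcoln1 and Cln3 held 2 each, and the other 6 genes held 1. A match is a description of these letters, not a bound site.

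The libraries differed in how many other brain cell types they recorded. Summed over 24 microglial markers, laser-captured libraries held 2341 to 5506 FPKM, against 8649 to 10890 in the sorted GFP and 10514 to 13579 in the sorted wild-type libraries, and none was at 0 in any library. The 12 oligodendrocyte markers summed to 2643 to 7662 FPKM after laser capture and 21.8 to 33.5 after sorting, where the defining marker Mbp stood between 2.04 and 3.60 FPKM. The 12 neuron markers summed to 807 to 2027 FPKM against 0.668 to 7.95. The 12 astrocyte markers summed to 575 to 1120 against 21.8 to 33.2, and the 12 endothelial markers to 162 to 431 against 65.7 to 78.8. Against sorted GFP, 11 of 12 oligodendrocyte, 11 of 12 neuron, 10 of 12 astrocyte and 8 of 11 tested endothelial markers were higher. The 13 markers of blood leukocytes and other macrophages summed to 1.19 to 35.3 FPKM after laser capture and 53.1 to 89.2 after sorting, and 3 of the 6 tested were lower. Of the 12 endothelial markers, 1 to 4 were at 0 in each sorted library, and Cldn5, a tight-junction gene, was at 0 in all 6. Of the 11 tested, 1 went the other way against sorted GFP (log2 change -1.29, not called). In such bulk libraries, fewer cells of a type and less RNA per cell cannot be told apart.

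The 31 genes made up 0.263% to 0.837% of all FPKM in the laser-captured libraries, 1.23% to 1.37% in the sorted GFP libraries and 1.32% to 1.55% in the sorted wild-type libraries. Within the laser-captured group, library 1 was the lowest for 18 of the 31 genes and library 2 the highest for 19. The median SD of log2(FPKM + 1) over the genes was 0.90 in the laser-captured, 0.11 in the sorted GFP and 0.21 in the sorted wild-type libraries, so the spread between laser-captured libraries was the wider one. Levels ran from a few FPKM for Galc, Neu1 and Arsa to between 2087 and 2425 for Laptm5 in the sorted libraries.

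**Figure D1:**
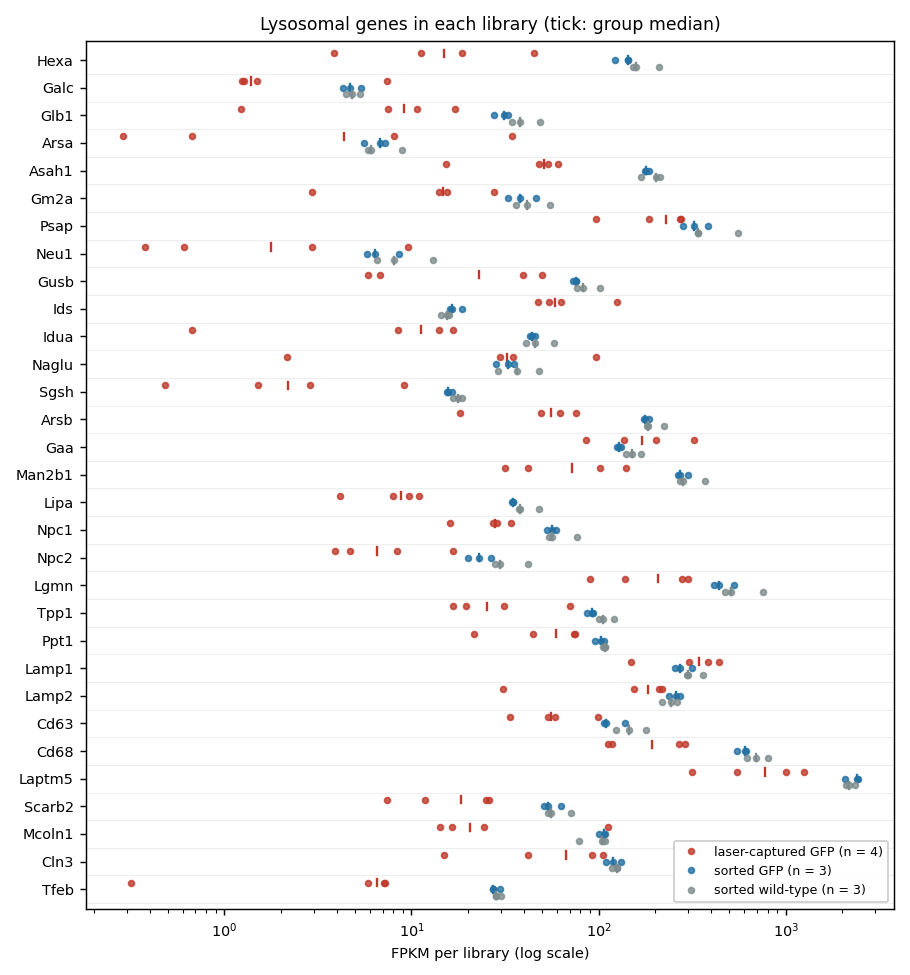
FPKM of each of the 31 lysosomal genes in every library on a log axis, ordered by role, with points for laser-captured GFP (4), sorted GFP (3) and sorted wild-type (3) libraries and a tick at each group's median. The laser-captured points lie to the left of the sorted ones for most genes and are more widely scattered; Ids lies to the right, between 47.6 and 125 FPKM.

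The first comparison asks how laser capture in tissue and flow sorting of dissociated cells differ in what they record. Against the sorted GFP libraries, the laser-captured libraries had lower levels of 12 of the 31 genes and a higher level of 1, Ids (limma on log2(FPKM + 1), Benjamini-Hochberg adjusted p under 0.05 over all genes tested); 18 were not called. Among all 13403 genes tested, 19.6% were called lower and 12.5% higher. The median log2 change of the 31 was -1.60, beside -0.60 over all genes tested, and 28 of the 31 lay below 0. In 23 genes every laser-captured library was below every sorted GFP library, which held for 31.2% of all genes, and in 1 gene every one was above, which held for 17.0%. The number called depended on the sorted libraries: leaving out any 1 of the 3 gave 0 lower and 0 higher among the 31. In the same fits 304 to 329 of all genes were still called lower and 738 to 758 higher. The median log2 change of the 31 stayed between -1.64 and -1.48.

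The sphingolipid enzymes and their activators made up 8 of the genes, of which 2 were lower against sorted GFP, with a median log2 change of -1.48. The counts of this and the following groups by role stand beside 19.6% lower and 12.5% higher among all genes tested. Hexa, the alpha subunit of the beta-hexosaminidase that degrades GM2 ganglioside, lies at chr9:59387474-59412914 (mm9) and measured 3.83, 18.6, 45.1 and 11.2 FPKM in laser-captured libraries 1 to 4. The sorted GFP libraries measured 143, 123 and 144, and the sorted wild-type libraries 159, 152 and 211. The groups did not overlap, and the highest laser-captured library was below every sorted one by more than the range of either sorted group. The mean was 19.7 ± 18.0 FPKM (SD, n = 4) against 137 ± 11.9 (SD, n = 3), a log2 change of -3.17 ± 0.70 (SE; limma adjusted p = 0.0118), the lowest estimate of the 31.

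Asah1, the acid ceramidase, measured 15.3, 60.8, 48.1 and 53.4 FPKM in the laser-captured libraries and 177, 178 and 186 in the sorted GFP libraries. Library 1 was low, and the other laser-captured libraries lay close together, all below the sorted ones. The log2 change was -2.16 ± 0.49 (SE; limma adjusted p = 0.0134). Glb1, the beta-galactosidase that cleaves GM1 ganglioside, measured 17.0, 7.48, 1.23 and 10.7 FPKM against 31.2, 27.5 and 32.7 in sorted GFP, with no overlap; its log2 change of -1.98 ± 0.71 (SE) missed the threshold (limma adjusted p = 0.0634). The second Glb1 row, a model nested inside the first, measured 0.0358 to 0.452 FPKM against 2.76 to 3.70.

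Psap, the precursor of the saposins that present sphingolipids to their hydrolases, measured 96.9, 277, 272 and 186 FPKM in the laser-captured and 324, 281 and 384 in the sorted GFP libraries. The groups were close without overlapping, and the log2 change was -0.76 with a 95% interval of -1.70 to 0.17. Gm2a, the GM2 activator that lifts the ganglioside to the enzyme, ranged from 2.94 to 27.7 FPKM against 32.6 to 46.5, a log2 change of -1.61 that was not called. Neu1, a sialidase, ranged from 0.377 to 9.52 FPKM against 5.79 to 8.54 and overlapped.

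Arsa, the arylsulfatase that acts on myelin sulfatide, was among the most uneven genes. It measured 0.673, 34.4, 8.05 and 0.288 FPKM in laser-captured libraries 1 to 4, beside 6.76, 5.55 and 7.20 in sorted GFP. Laser-captured libraries 1 and 4 were below all sorted libraries, while library 2 was above all of them. Galc, which degrades the myelin lipid galactosylceramide, measured 1.27, 1.50, 1.24 and 7.40 FPKM against 4.66, 5.39 and 4.33. Here 3 laser-captured libraries were below the sorted range and library 4 above it, and neither Arsa nor Galc was called.

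Of the 6 glycosaminoglycan enzymes, 3 were lower and 1 was higher, and the group therefore moved in both directions. Ids, iduronate-2-sulfatase of heparan and dermatan sulfate breakdown, lies at chrX:67596244-67618260 (mm9) and measured 125, 47.6, 54.6 and 62.8 FPKM in the laser-captured libraries. It measured 16.0, 16.5 and 18.7 in sorted GFP and 15.9, 14.3 and 15.4 in sorted wild-type libraries. Every laser-captured library stood above every sorted one, library 1 farthest. The mean was 72.5 ± 35.5 FPKM (SD, n = 4) against 17.1 ± 1.40 (SD, n = 3), 4.25 times as high, and the log2 change was 1.92 ± 0.42 (SE; limma adjusted p = 0.0107). The call was lost when any 1 sorted GFP library was left out, with adjusted p at most 0.0742 over all the settings tried, and the estimate stayed between 1.63 and 3.51. Neuron markers were higher in the same libraries, 11 of 12 called and no overlap in 11; their part in the level of Ids was not tested.

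Idua, the iduronidase that acts after Ids in the same breakdown, measured 0.671, 16.7, 8.42 and 14.0 FPKM against 43.9, 45.7 and 42.9 in sorted GFP. All laser-captured libraries were lower, library 1 by far, and the log2 change was -2.49 ± 0.81 (SE; limma adjusted p = 0.0473). Its locus overlaps those of Dgkq and Slc26a1, as those of Arsb, Arsa, Cln3, Ppt1, Npc1, Lamp1 and Sgsh overlap other annotated genes, and whether the authors counted by strand is not given in the sources used here. Sgsh, the heparan N-sulfatase, measured 0.478, 9.10, 2.88 and 1.51 FPKM against 15.7, 15.4 and 16.5, a log2 change of -2.28 ± 0.67 (SE; limma adjusted p = 0.0339). Arsb, which removes sulfate from dermatan and chondroitin sulfate, measured 18.3, 62.1, 76.1 and 49.1 FPKM against 186, 175 and 176, a log2 change of -1.95 ± 0.49 (SE; limma adjusted p = 0.0196). Both were below the sorted range in every laser-captured library.

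Gusb, beta-glucuronidase, split the laser-captured libraries: it measured 6.82 and 5.85 FPKM in libraries 1 and 4 and 39.3 and 50.0 in libraries 2 and 3. The sorted GFP libraries lay between 73.3 and 75.6, and the log2 change of -2.06 was not called (limma adjusted p = 0.0749). Naglu, the alpha-N-acetylglucosaminidase of heparan sulfate breakdown, measured 2.16, 96.7, 29.9 and 34.8 FPKM against 32.7, 28.1 and 35.2. Library 1 was below and library 2 above the sorted libraries, and the 95% interval of the log2 change, -2.81 to 1.92, covers large differences in both directions.

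Among the glycan and glycogen enzymes, Man2b1, the lysosomal alpha-mannosidase, was lower, and Gaa was not called. Man2b1 measured 31.6, 102, 139 and 42.0 FPKM against 265, 271 and 299.7, with a log2 change of -2.06 ± 0.53 (SE; limma adjusted p = 0.0216). In the authors' deposited table it is the only gene of the 31 marked significant, with a log2 change of -2.14 (q = 0.0132) from sorted GFP to laser-captured GFP. Gaa, the acid alpha-glucosidase that degrades glycogen, measured 136, 85.6, 203 and 322 FPKM against 125, 129 and 132. The laser-captured libraries lay on both sides of the sorted ones, and the 95% interval of the log2 change ran from -0.66 to 1.40.

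Of the 3 genes for lipid release and cholesterol export, 1 was called lower against sorted GFP. Lipa, the acid lipase that frees cholesterol from its esters, measured 9.71, 11.0, 4.13 and 7.95 FPKM against 34.8, 34.6 and 34.8. The sorted libraries were almost equal, and the laser-captured mean of 8.20 ± 3.00 FPKM (SD, n = 4) was 23.6% of the sorted mean, a log2 change of -2.03 ± 0.44 (SE; limma adjusted p = 0.0104). Npc1 and Npc2, the membrane and the soluble protein that pass cholesterol out of the lysosome, were below the sorted GFP range in every laser-captured library. Npc1 measured 16.0, 28.7, 27.3 and 34.2 FPKM against 53.2, 59.5 and 56.6, a log2 change of -1.11 (limma adjusted p = 0.0527). Npc2 measured 3.91, 16.6, 8.41 and 4.69 FPKM against 22.9, 20.0 and 26.5, a log2 change of -1.54 (limma adjusted p = 0.0586).

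Among the 3 genes for proteases and thioesterases, 1 was called. Tpp1, a tripeptidyl peptidase, measured 19.6, 69.9, 31.1 and 16.7 FPKM against 92.8, 86.8 and 92.3, with library 2 nearest to the sorted range and a log2 change of -1.60 ± 0.51 (SE; limma adjusted p = 0.0444). Lgmn, the asparaginyl endopeptidase legumain, measured 89.5, 302, 278 and 138 FPKM against 440.2, 415 and 529, a log2 change of -1.35 (limma adjusted p = 0.0527). Ppt1, which removes palmitate from proteins, ranged from 21.6 to 75.1 FPKM against 95.5 to 107. None of the 3 overlapped between the groups.

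The 8 membrane proteins gave 3 calls, all lower, with changes from -1.84 to 0.08 on the log2 scale. Laptm5, a lysosomal protein of blood-lineage cells, had the highest level of the 31 genes. It measured 549, 1255, 1001 and 317 FPKM in the laser-captured and 2411, 2087 and 2425 in the sorted GFP libraries, a log2 change of -1.75 ± 0.46 (SE; limma adjusted p = 0.0225). Cd68, the macrophage member of the LAMP family, measured 118, 289.6, 268 and 112 FPKM against 607, 553 and 610.0, a log2 change of -1.71 ± 0.41 (SE; limma adjusted p = 0.0159). Both genes were low in libraries 1 and 4 and higher in libraries 2 and 3, the libraries in which the microglial markers also summed higher.

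Scarb2, the receptor that carries glucocerebrosidase to the lysosome, measured 7.41, 25.9, 11.7 and 24.9 FPKM against 53.4, 51.2 and 62.7, with a log2 change of -1.78 ± 0.50 (SE; limma adjusted p = 0.0299). Lamp1, a main structural glycoprotein of the membrane, measured 149, 441, 385 and 306 FPKM against 271, 256 and 316. Library 1 was below the sorted libraries, libraries 2 and 3 above, and the 95% interval of the log2 change ran from -0.83 to 1.00. Its relative Lamp2, which also serves as a receptor in autophagy, measured 30.7, 211, 218 and 155 FPKM against 258, 237 and 272. All its laser-captured values were below the sorted GFP range, libraries 2 and 3 by little, and it was not called.

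Mcoln1, the calcium channel of the lysosomal membrane, measured 24.5, 112, 14.2 and 16.5 FPKM against 107, 108 and 101. Library 2 was above every sorted library and the other laser-captured libraries far below, so the groups overlapped. Cln3, a membrane protein lost in juvenile neuronal ceroid lipofuscinosis, measured 106, 92.4, 41.8 and 14.9 FPKM against 119.8, 109 and 131. Cd63, a tetraspanin, measured 58.3, 33.8, 53.5 and 99.2 FPKM against 107, 109.7 and 139, and was the highest in library 4.

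Tfeb itself, at chr17:47873979-47929368 (mm9), measured 0.316, 7.25, 7.16 and 5.87 FPKM in the laser-captured libraries. The sorted GFP libraries measured 27.4, 27.2 and 29.5, and the sorted wild-type libraries 30.3, 28.3 and 28.4. Library 1 stood apart below the other laser-captured libraries, which were all below the sorted range. The log2 change against sorted GFP was -2.55 ± 0.70 (SE; limma adjusted p = 0.0279). Of the 9 genes with a CACGTG shown above, 1 (Sgsh) was called lower, with a median log2 change of -1.24. Of the 20 genes with a promoter window and no CACGTG, 10 were called lower and 1 higher, with a median of -1.66. Among all genes tested, 19.6% were called lower and 12.5% higher. Asah1, called lower, and Npc1, not called, had no window and are in neither count. Whether the element has a part in these changes was not tested.

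**Figure D2:**
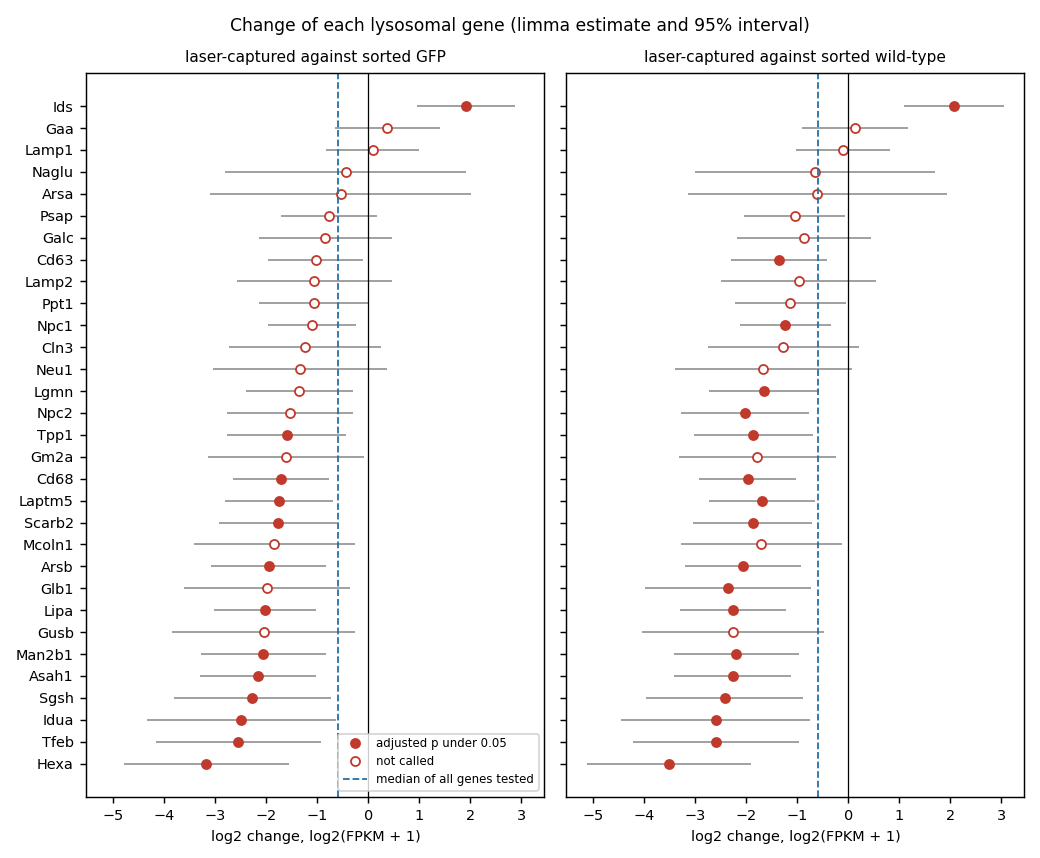
Log2 change of each lysosomal gene in laser-captured libraries against sorted GFP (left) and sorted wild-type (right) libraries, with 95% intervals, in the order of the left panel; filled points were called at an adjusted p under 0.05 and the dashed line is the median of all genes tested (-0.60 and -0.59). Hexa is at the low end in both panels (-3.17 and -3.51) and Ids at the high end (1.92 and 2.07).

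Against the sorted wild-type libraries, laser capture gave lower levels of 17 of the 31 genes and a higher level of 1, again Ids, where 19.1% of all 13415 genes tested were lower and 12.3% higher. The median log2 change was -1.71, beside -0.59 over all genes. In 23 genes every laser-captured library was below every sorted wild-type library (29.6% of all genes) and in 1 every one was above (16.9%). This comparison shares its 4 laser-captured libraries with the first, so it is not an independent repeat, and the groups differ in the reporter and in labelled sex as well. Without sorted wild-type library 1, 2 or 3, 2, 2 and 1 of the genes were called in either direction, and the median log2 change was -1.73, -1.87 and -1.73. In the same fits 326, 384 and 331 of all genes were called lower and 763, 776 and 768 higher.

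The genes called against wild-type and not against sorted GFP were Glb1, Npc1, Npc2, Lgmn and Cd63. Glb1 measured 34.3, 38.2 and 48.7 FPKM in the wild-type libraries, and its log2 change was -2.37 ± 0.71 (SE; limma adjusted p = 0.0368). Npc2 measured 28.0, 29.6 and 42.0 FPKM there, for a change of -2.03 ± 0.55 (SE; limma adjusted p = 0.0247), and Npc1 measured 54.2, 56.7 and 76.5, for a change of -1.24 ± 0.39 (SE; limma adjusted p = 0.0433). Lgmn measured 510.1, 474 and 752 FPKM, for a change of -1.65 ± 0.47 (SE; limma adjusted p = 0.0302), and Cd63 measured 146, 124 and 179, for a change of -1.36 ± 0.41 (SE; limma adjusted p = 0.0369). In all 5 genes wild-type library 3 was the highest of its group. Hexa was called against wild-type with a log2 change of -3.51 ± 0.70 (SE; limma adjusted p = 0.00762), and Ids with 2.07 ± 0.42 (SE; limma adjusted p = 0.00809).

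Beside the microglial markers, the 31 lysosomal genes had a median change of nearly the same size. Of the 24 markers, 18 were lower against sorted GFP (median log2 change -1.63) and 21 against wild-type (median -1.87); none was higher. The microglial markers Tyrobp, Csf1r and Selplg, the first an adaptor of immune receptors and the second the receptor for colony-stimulating factor 1, had log2 changes of -1.59, -1.13 and -1.49 against sorted GFP, and of these Tyrobp was called. The mean log2(FPKM + 1) of the 31 genes minus that of the markers was -1.92, -1.76, -2.27 and -1.66 in laser-captured libraries 1 to 4, -2.25, -2.10 and -2.22 in sorted GFP and -2.20, -2.21 and -2.21 in sorted wild-type libraries. Laser-captured library 3 was just below the sorted libraries on this measure and the other 3 were above them.

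**Figure D3:**
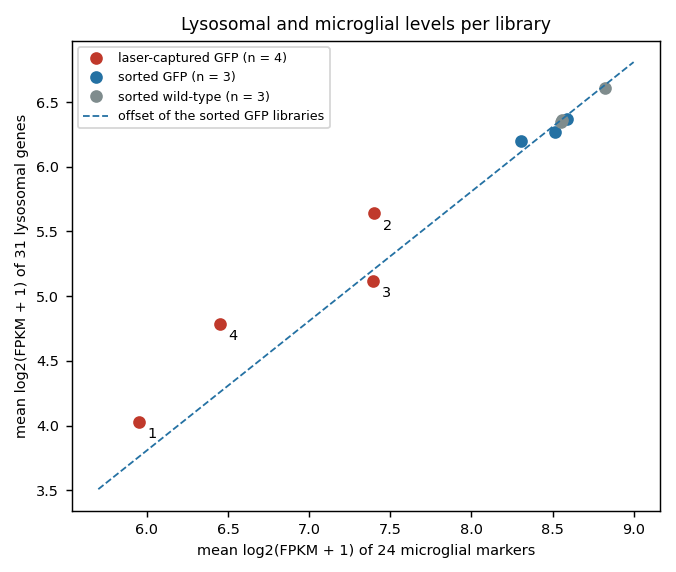
Mean log2(FPKM + 1) of the 31 lysosomal genes against the mean of 24 microglial markers, 1 point per library, with the laser-captured libraries numbered; the dashed line has a slope of 1 and passes at the mean offset of the sorted GFP libraries. The laser-captured libraries are lower on both axes, and 3 of the 4 lie above the line.

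When each library was scaled to its microglial markers, 0 of the 31 genes were lower against sorted GFP, and 2 were higher, Ids and Lamp1. Among all 13403 genes tested on this scale, 552 were called lower and 2460 higher. The median log2 change of the 31 became -0.05, with 14 genes above 0 and 17 below, while the median over all genes tested became 0.78. On this scale Ids had a log2 change of 3.51 (limma adjusted p = 0.00831) and Lamp1 of 1.75 (limma adjusted p = 0.00698). Lamp1 minus the microglial mean was 1.28, 1.39, 1.20 and 1.81 in the laser-captured libraries against -0.43 to -0.28 in all 6 sorted ones. Hexa stayed lowest at -1.58 against sorted GFP (limma adjusted p = 0.0708) and was called against wild-type at -1.75 (limma adjusted p = 0.0476). Hexa minus the microglial mean was -3.68, -3.11, -1.86 and -2.84 in laser-captured libraries and between -1.41 and -1.10 in all sorted ones, with no overlap.

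Other lysosomal genes, from lists written for their roles, were examined beside the 31. Of 20 other hydrolases tested, 4 were lower and 0 higher against sorted GFP, with a median log2 change of -1.54. At an unadjusted p under 0.05 there were 10, all lower. Among all 13403 genes tested, 19.6% were called lower and 12.5% higher. At an unadjusted p under 0.05, 3805 of them were lower and 2217 higher. Among them Acp2, the lysosomal acid phosphatase, measured 14.0, 46.2, 56.3 and 71.2 FPKM in the laser-captured and 140.4, 131 and 132 in the sorted GFP libraries. It was lower by limma, at -1.71 on the log2 scale (adjusted p = 0.0444).

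Of 18 other lysosomal membrane proteins tested, 8 were lower and 1 was higher (median -1.43). The higher one was Abca2, a lipid transporter abundant in myelinating cells, at 482, 320.1, 413 and 518 FPKM against 36.2, 33.1 and 29.3 in sorted GFP, with a log2 change of 3.66 (limma adjusted p = 0.000189). Oligodendrocyte markers were higher in the same libraries, 11 of 12 called, and their part in the level of Abca2 was not tested. Slc11a1, a metal transporter of macrophage lysosomes, had a log2 change of -2.07 (not called), and Cd164, a sialomucin, -0.21 (not called).

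The V-ATPase, the proton pump that acidifies the lysosome, did not move as a block: of 19 subunits tested 3 were lower (Tcirg1, Atp6ap2 and Atp6v1g1) and 2 higher (Atp6v1g2 and Atp6v0e2), with a median of -0.59. Tcirg1, the pump subunit of macrophages and osteoclasts, measured 102, 91.8, 70.6 and 21.7 FPKM against 221, 211 and 239. Atp6v1g2, a subunit isoform of neurons, measured 13.3, 118, 91.0 and 166 FPKM against 9.28, 11.6 and 8.96, and Atp6v0e2 measured 14.8 to 33.6 against 0.0361 to 0.404. Atp6ap1 and Atp6v0b, the subunits with the highest mean level, had changes of -0.19 and -1.01 that were not called.

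Among 18 genes for sorting of enzymes to the lysosome, 2 were lower (Ap3b1 and Vps26a) and 2 higher (Gga1 and Sorl1), with a median of -0.50. Grn, which encodes progranulin, had a log2 change of -1.58 (limma adjusted p = 0.0590), the sorting receptor Sort1 -0.68 and the adaptor Gga3 0.50, none called. Among 16 genes that control lysosome formation and nutrient signalling at its surface, 4 were lower (Tfe3, a relative of Tfeb, and Lamtor3, Lamtor4 and Lamtor5 of the Ragulator complex) and 1, Rragd, was higher, with a median of -1.17. Rptor and Lamtor1 had changes of -0.76 and -0.62, not called. Against sorted wild-type, 6 of 20 other hydrolases were lower, 8 of 18 other membrane proteins were lower and 1 higher, 3 of 19 V-ATPase subunits were lower and 4 higher, 4 of 18 sorting genes were lower and 1 higher, and 3 of 16 control genes were lower and 1 higher. The counts against sorted GFP stand beside 19.6% lower and 12.5% higher among all genes tested. Those against sorted wild-type stand beside 19.1% and 12.3%. The medians against sorted GFP stand beside -0.60 for all genes tested, and nothing particular to a list follows from its counts or its median.

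**Figure D4:**
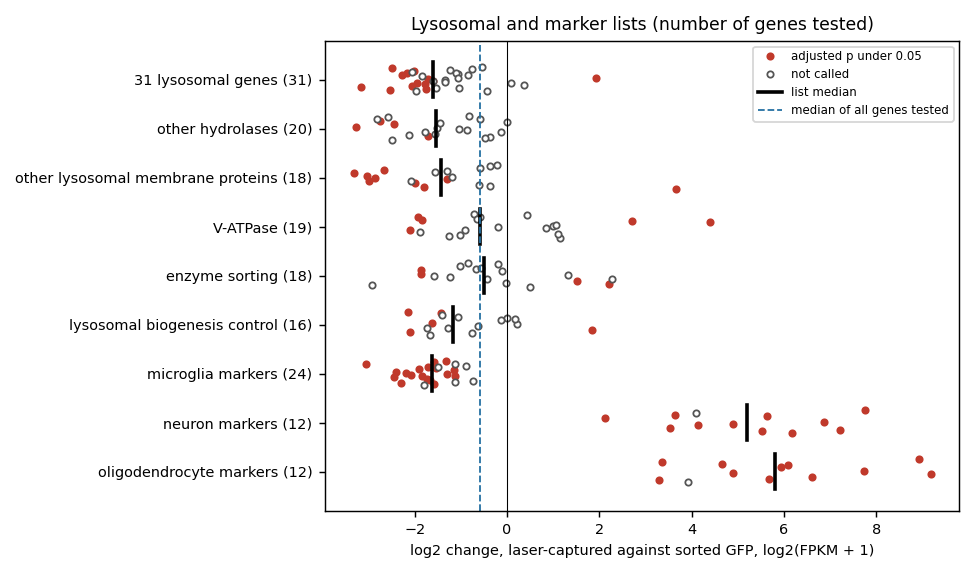
Log2 change in laser-captured against sorted GFP libraries for each gene of the lysosomal and marker lists, 1 point per gene, filled where called, with a bar at the list median and a dashed line at the median of all genes tested (-0.60). The 31 lysosomal genes have a median of -1.60, close to the -1.63 of the microglial markers, and the neuron and oligodendrocyte markers lie above 0.

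The third comparison asks whether microglia with and without the reporter differ when both are sorted. None of the 31 genes was called (limma), where 0.0762% of all 11814 genes tested were lower in sorted GFP and 0.0339% higher. At an unadjusted p under 0.05, 3 genes were lower in sorted GFP, Npc2, Glb1 and Tpp1, and 0 were higher. At the same level 686 of all 11814 genes tested were lower and 866 higher. The log2 changes ran from -0.49 for Npc2 to 0.15 for Ids, with 27 of the 31 below 0 and a median of -0.14, beside 0.00 over all genes. In 9 genes every sorted GFP library was below every wild-type library (9.29% of all genes), and in 1, Ids, every one was above (11.5%). These groups also differ in labelled sex (all wild-type libraries are male) and the labels give a strain for the wild-type mice only, so reporter, sex and strain cannot be told apart.

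Npc2 had a log2 change of -0.49 with a 95% interval of -0.89 to -0.09 (limma adjusted p = 0.320). Glb1 had -0.38 (-0.72 to -0.05, limma adjusted p = 0.346) and Tpp1 -0.26 (-0.51 to -0.01, limma adjusted p = 0.369). Wild-type library 3 was the highest of its group for 22 of the 31 genes. Without it, the median change was -0.06 and 24 genes lay below 0. For Lamp1 the interval was -0.50 to 0.12, for Laptm5 -0.26 to 0.38 and for Tfeb -0.28 to 0.19, so these data leave room for differences up to those bounds. The microglial markers had a median of -0.17 in this comparison, and after scaling to them the median of the 31 was 0.02.

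**Figure D5:**
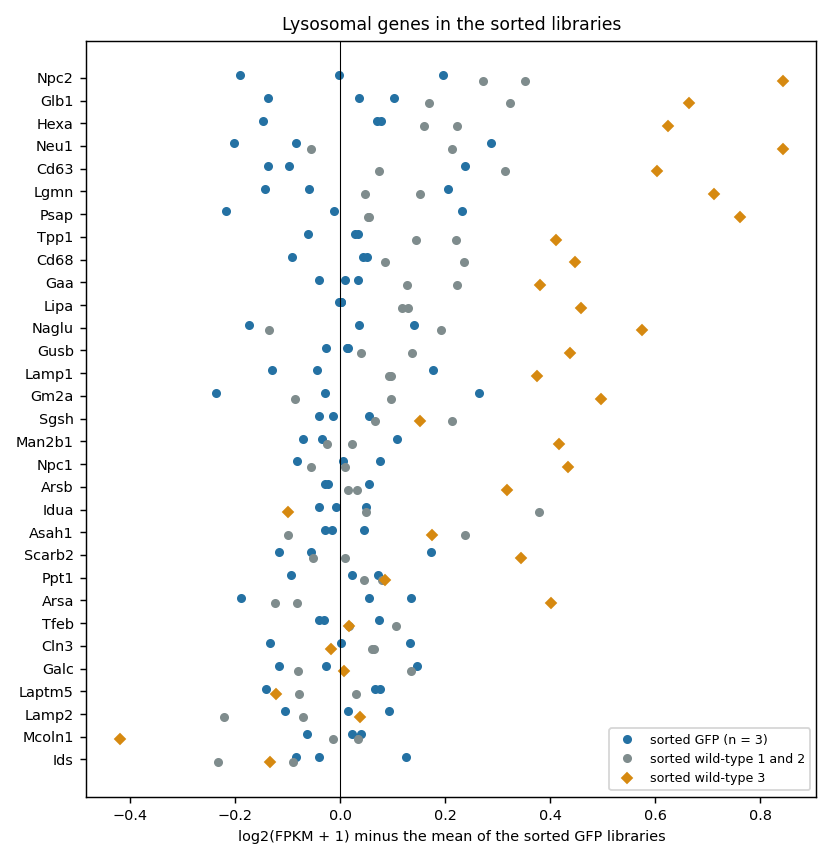
The 6 sorted libraries for each lysosomal gene, as log2(FPKM + 1) minus the mean of the 3 sorted GFP libraries; wild-type library 3 is drawn as diamonds. The diamonds are the farthest to the right for most genes (it is the highest wild-type library for 22 of 31), while wild-type libraries 1 and 2 lie closer to the sorted GFP points.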

How the data were processed

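Expression was measured in 10 libraries by RNA sequencing after amplification with the Ovation method, per the labels' protocols. The submitters' processing notes name the build mm9 and, in no stated order, Cufflinks 2.0.2, Bowtie2 2.0.0, TopHat2 2.0.4 and CASAVA 1.8.2; annotation release and strand use are not given in the sources used here. The deposited values are FPKM per gene and library, per the file headers. A deposited comparison table holds a log2 fold change, used as a score, with the authors' p-value and q-value. The 12 deposited tables with parts of that comparison were not used.

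The files give no counts, and the steps between low FPKM values did not resolve whole fragments (64.2% to 78.2% of values within 0.2 of a whole multiple), so the depth is unknown and no counting interval is given. A value of 0 can be a failed estimate, since 13661 genes are at 0 in every library.

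A gene entered a test when 3 or more compared libraries reached an FPKM of 1. Testing used log2(FPKM + 1) and limma 3.58.1 (trend and robust, statmod 1.5.0, R 4.3.3), two-sided, with only the 2 compared groups in the fit and Benjamini-Hochberg adjustment over all genes tested, at a threshold of 0.05. Adding the pseudocount of 1 makes the changes of weakly expressed genes look smaller than they are. The test was run on simulated data first, and its rates of false and missed calls there are not reported here. Tables and figures were made with Python 3.11.15, pandas 2.3.3, numpy 2.4.6, scipy 1.17.1 and matplotlib 3.10.9.

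The 31 genes, the 11 comparison lists (182 genes, 180 matched; Galns and Vamp7 were not analysed here) and the tests were chosen with earlier results of these data known. Values in each laser-captured and sorted GFP library are given for genes called in any comparison and for the 5 with the highest mean FPKM. Such values are also given, in full or in part, for further genes whose groups do not overlap or whose libraries stand apart. Wild-type values are given for some genes only. From each list up to 3 genes are named by mean FPKM, plus those called against its majority where 5 or fewer. Further genes named were chosen after their values were seen: the called genes of the V-ATPase, sorting and biogenesis lists, and the markers Mbp and Cldn5. Some genes that the rule would name are not reported here. Alternatives covered the pseudocount, the filter, scaling, the model, the replicate number, labelled sex and leaving out libraries.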

Additional observations from a re-analysis of the deposited data

Results flagged for a closer look

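In 2 of the 31 genes, 1 laser-captured library was far from the other 3 of its group by Dixon's test on log2(FPKM + 1). Both were past its 95% critical value for 4 samples. Chance alone flags about 1 in 20 such groups.

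Galc measured 7.40 FPKM in laser-captured library 4, beside 1.27, 1.50 and 1.24 in libraries 1 to 3. The gap was 0.916 of the range of log2(FPKM + 1). Tfeb measured 0.316 FPKM in laser-captured library 1, beside 7.25, 7.16 and 5.87 in libraries 2 to 4. The gap was 0.900 of the range of log2(FPKM + 1).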

How the results depend on the processing

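The 12 genes lower against sorted GFP became 7 without a filter, 3 under median-ratio scaling and 0 when scaled to the microglial markers. A fit of all 3 groups gave 20, and leaving out 1 library gave 0 to 17. Among all genes, 2624 of 13403 were lower in the main fit. Under the same settings, in that order, the number was 2703 of 23201, 1357 of 13403, 552 of 13403 and 3755 of 13403. Leaving out 1 library gave 304 to 3400 of all genes. Of the 31, the 1 higher became 2 when scaled to the markers and 0 to 1 when 1 library was left out. Against wild-type the 17 lower became 8, 5 and 1 under the same first 3 settings, and 1 to 19 when 1 library was left out. Among all genes, the 2558 of 13415 lower became 2642 of 23076, 1349 of 13415 and 490 of 13415, and 326 to 3267. The 1 of the 31 higher against wild-type became 2 when scaled to the markers and 0 to 1 when 1 library was left out. Leaving out a sorted library leaves 2 in that group, and fewer genes in all are then called. None of the 31 was called between sorted groups under any setting (smallest adjusted p 0.147). Scaling to the markers turned the sign of 11 genes against sorted GFP and 13 against wild-type; those called on either scale were Tpp1 against sorted GFP (0.033) and Cd63 (0.47), Lamp1 (1.73), Laptm5 (0.15), Lgmn (0.19) and Npc1 (0.56) against wild-type; it moves the median of all genes from -0.60 to 0.78 against sorted GFP. Median-ratio scaling gives -0.14 and quantile normalization -0.29. Hexa against wild-type was called in all 19 alternatives. The cause of the other changes was not tested.

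With the replicate number as a block, 10 genes were lower against sorted GFP and 11 against wild-type. Among all genes, 1933 of 13403 and 1907 of 13415 were lower in these fits. The labels pair the libraries by nothing but this number, and no pairing was assumed. Deviations of same-numbered libraries correlated across genes at -0.0185, 0.0133 and -0.0352 (laser-captured with sorted GFP) and -0.0406, 0.0137 and -0.0294 (laser-captured with wild-type). Between the sorted groups they correlated at 0.141, 0.0102 and 0.214, beside -0.224 to 0.0885 for different numbers. For numbers 1 and 3 the correlation was thus above that of every differently numbered sorted pair, and the cause was not tested.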
